A study of Mus musculus with 212 samples.

Results

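Cdh5, Pecam1 and Vwf are the 3 endothelial genes on a panel of 33 genes that was measured with 42 TaqMan assays in single cells of the mouse heart lineages. They were chosen by name, with 1 assay each, and not by their values. Their mouse Entrez Gene identifiers are 12562 for Cdh5, 18613 for Pecam1 and 22371 for Vwf. Cdh5 encodes VE-cadherin, the adhesion protein of endothelial cell junctions. Pecam1 encodes CD31, a further junction protein of endothelial cells that is also made by blood cells and by undifferentiated embryonic stem (ES) cells. Vwf encodes von Willebrand factor, a clotting protein that endothelial cells store and secrete. Endothelium arises in the early embryo from mesoderm that carries the VEGF receptor Flk-1 (Kdr), and in the heart it lines the chambers as endocardium and the vessels of the wall. Muscle cells of the heart are not known for these genes.

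The study profiled ES cell-derived and embryonic cardiac cells by microfluidic quantitative PCR. The 7 tables hold 200 cells, of which 8 repeat another cell in all 42 values, and 192 are distinct. The reference table names 5 cells each of CPC, CM, SMC, FB, EDC and ES, and its label lists the last as ESC without spelling out the others. The D5-D8 table has 6 cells per day for D5, D6, D7 and D8, and the D23-D29 table has 10 cells each for D23 and D29. The E7.5-E10.5 table has 6 cells each for E7.5, E8.5, E9.5 and E10.5. A separate E10.5 table has 72 cells, and 6 of them are the E10.5 cells of the former table, which leaves 66. Repeated cells outside this table were kept in their named sets, so set counts there may include the same cell again. The atrial and the ventricular table have 5 neonatal and 10 adult cells each. All samples are labelled mouse, and all outside the reference table are labelled cardiac. No strain, genotype, transgene, treatment, animal or culture is named in the labels, so how many animals or cultures the cells came from is unknown, and a named set counts as 1 sample.

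Some labels contradict each other. Samples assigned to the D5-D8 table are titled as E10.5 cells from embryos, those of the E7.5-E10.5 table as late ES-derived cells from embryoid bodies, and those of the D23-D29 table as early ES-derived cells. The cell names inside the tables follow the table names, and sets are named here by them. The reference, E10.5, atrial and ventricular tables have no such conflict, and results that rest on them are given apart from the others.

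Expression is given as 25 minus the quantification cycle (Ct), in cycles. A Ct of 25 stands for no signal, so 0 means not detected, and a step of 1 cycle is a doubling of template if PCR is fully efficient. The assays differ in efficiency, so levels are compared between cells for 1 gene and never between genes. Errors are SDs between cells, which may come from 1 animal or culture, and intervals for shares are exact (Clopper-Pearson, 95%) and cover counting error only. With 1 sample per set no test across samples could be made, and none is given. The 6 negative controls, 1 for each table except the large E10.5 table, detected none of the 3 genes. The E10.5 table, which holds the lowest Vwf levels, was thus read without a control of its own. The positive control read 15.49 for Cdh5, 12.43 for Pecam1 and 14.35 for Vwf in 3 tables (E7.5-E10.5, D5-D8 and reference), above every cell measured. In the atrial and ventricular tables, positive control values appeared under the next gene's name. Cells of those tables did not follow the shift: the mean absolute difference between paired assays of 5 genes was 1.74 cycles (atrial) and 1.46 (ventricular) under the deposited names, and 7.91 and 6.17 after moving the names by 1 row. The names were kept.

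At least 1 endothelial gene was detected in 47 of the 192 distinct cells (24.5%, interval 18.6 to 31.2%). Of these, 27 cells had 1 gene, 5 had 2 and 15 had all 3. Cdh5 was detected in 27 cells, Pecam1 in 30 and Vwf in 25. In the plot of levels by set, cells with Cdh5 sit mostly in the EDC, E7.5, E8.5 and E10.5 sets, Pecam1 adds the ES cells, and the embryoid body sets are almost empty.

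**Figure D1:**
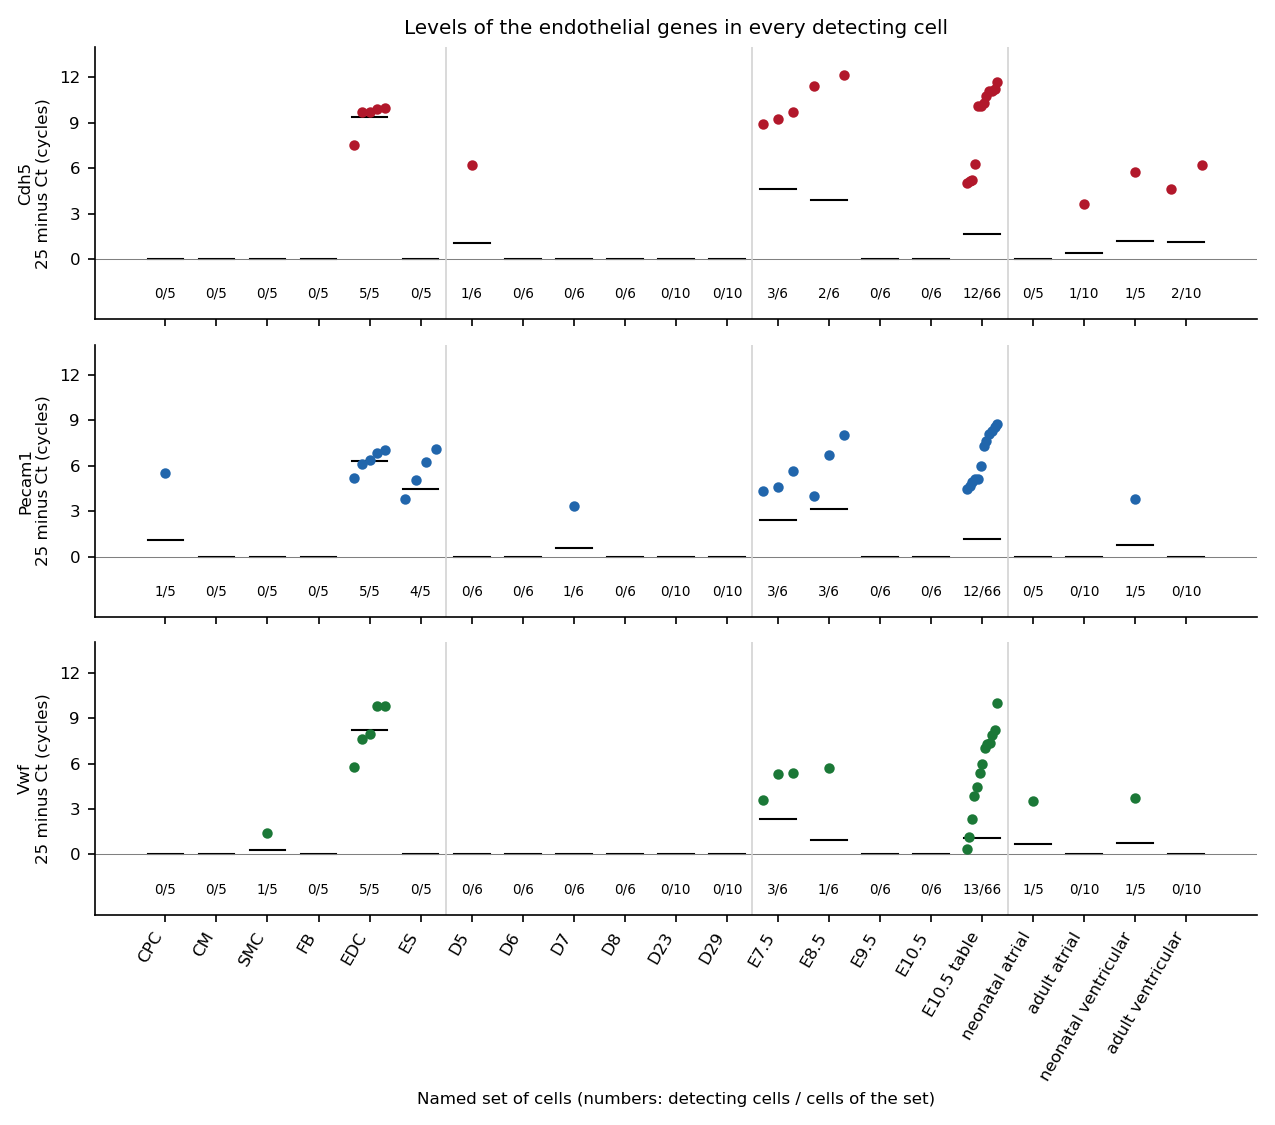
Level of Cdh5, Pecam1 and Vwf (25 minus Ct, cycles, vertical axis) in each detecting cell (points, spread sideways by rank) of the 21 named sets (horizontal axis). Black lines are means over all cells of a set, undetected cells counted as 0, and the fractions give detecting cells over cells. All 5 EDC cells show all 3 genes, and D23, D29, E9.5 and the 6-cell E10.5 set show none.

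The reference cells set the scale for cells named EDC. All 5 EDC cells carried all 3 genes. Cdh5 read 7.52, 9.68, 9.70, 9.90 and 9.96 cycles in cells EDC-1 to EDC-5. Pecam1 read 7.06, 5.16, 6.82, 6.10 and 6.38 cycles in the same order. Vwf read 5.77, 9.83, 9.82, 7.62 and 7.94 cycles. EDC-1 was thus lowest for Cdh5 and Vwf and highest for Pecam1, and it was also the single EDC cell without Flk-1. Besides the 3 genes, 4 of the 5 cells had Flk-1 (4.35 to 6.73 cycles), which 3 of 5 CPC cells had too. None of the 5 detected Tnnt2-1, the first of 2 assays for cardiac troponin T, but neither did any CPC, FB or ES cell. The endothelial reading of the name EDC thus rests mainly on the 3 genes themselves.

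Among the 25 reference cells of other names, 6 had an endothelial gene (24%, interval 9.36 to 45.1%), each of them a single gene. Pecam1 was detected in 4 of 5 ES cells, at 3.78, 5.09, 6.27 and 7.09 cycles, which overlaps the EDC range of 5.16 to 7.06. The ES cells had neither Cdh5 nor Vwf, and these 4 had no Flk-1. They did detect Kit-1, 1 of 2 assays for the stem cell factor receptor Kit, at 3.85 to 6.46 cycles. The other cells were CPC-5, with Pecam1 at 5.53 cycles together with Flk-1 at 7.21, and SMC-2, with Vwf at 1.41 cycles. No CM or FB cell detected any of the 3. Pecam1 was therefore the one gene of the 3 whose level in a second reference type lay within its EDC range.

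In cells named for embryoid body days, the genes were nearly absent. Of the 44 cells from D5 to D29, 2 had an endothelial gene (4.55%, interval 0.555 to 15.5%), and each had 1. D5-6 carried Cdh5 at 6.23 cycles without Pecam1, Vwf or Flk-1. D7-1 carried Pecam1 at 3.34 cycles, with Flk-1 at 3.33. Vwf was not detected in any of the 44 cells, nor was any of the 3 genes in the 20 cells of D23 and D29, where the count allows a share of up to 16.8% at the upper 95% bound. Flk-1, in contrast, was detected in 12 of the 42 cells without an endothelial gene, at 3.65 to 9.55 cycles. The change between neighbouring days reached 1 cycle for a member once: mean Cdh5 was 1.04 cycles lower at D6 than at D5, which rests on the single cell D5-6. Of all 42 assays, 19% were lower at D6 by 1 cycle or more. In the later steps, D6 to D7, D7 to D8 and D23 to D29, none of the 3 genes moved by 1 cycle, while 59.5%, 42.9% and 45.2% of the assays did.

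In cells named for embryo stages, the 3 genes were present from the earliest stage sampled. At E7.5, 4 of 6 cells had at least 1 gene (66.7%, interval 22.3 to 95.7%). E7.5-5 had Cdh5 at 8.89, Pecam1 at 5.65 and Vwf at 5.35 cycles. E7.5-6 had Cdh5 at 9.27, Pecam1 at 4.34 and Vwf at 3.57 cycles. E7.5-4 had Cdh5 at 9.69 and Pecam1 at 4.60 cycles without Vwf, and E7.5-2 had Vwf alone at 5.30. All 4 cells carried Flk-1, between 9.57 and 10.78 cycles, the cell with Vwf alone included. Flk-1 did not set them apart at this stage. It was detected in 5 of the 6 E7.5 cells, and its highest level, 10.91 cycles, was in a cell with none of the 3 genes. None of the 4 detected Tnnt2-1. Cdh5 in the 3 positive cells lay within the range of the EDC cells, 7.52 to 9.96 cycles, although E7.5-5 and E7.5-6 were below EDC-2 to EDC-5. Pecam1 in E7.5-4 and E7.5-6 and Vwf in all 3 cells with Vwf lay below every EDC cell.

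At E8.5, 3 of 6 cells had an endothelial gene (50%, interval 11.8 to 88.2%). E8.5-1 had Cdh5 at 12.12 cycles, the highest Cdh5 level of the 192 cells, and Pecam1 at 8.05 without Vwf. E8.5-2 had Cdh5 at 11.43, Pecam1 at 6.75 and Vwf at 5.71 cycles. Both had Flk-1, at 10.95 and 9.90 cycles. E8.5-6 was of another kind, with Pecam1 at 4.02 cycles alone, no Flk-1, and Tnnt2-1 at 12.63. Cdh5 in both E8.5 cells exceeded all 3 E7.5 cells and all 5 EDC cells, and Actb, the housekeeping assay, was also high in them, at 12.48 and 11.85 cycles against 10.38 to 12.07 in the E7.5 cells with Cdh5 and 7.40 to 9.66 in the EDC cells. The part of cell content in these levels was not tested.

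None of the 3 genes was detected in the 6 cells of E9.5 or the 6 of E10.5 in the same table, which together allow a share of up to 26.5% at the upper 95% bound. Every one of these 12 cells met the myocyte rule given below, while none of the E7.5 cells and 4 of the E8.5 cells did. Mean Cdh5 moved by -0.71 cycles from E7.5 to E8.5 and by -3.92 from E8.5 to E9.5. Mean Pecam1 moved by 0.70 and then by -3.13 cycles. Mean Vwf moved by -1.42 and then by -0.95 cycles. Of all 42 assays, 14.3% were at least 1 cycle lower in the first step and 16.7% in the second, so Cdh5 and Pecam1 at E9.5 were among a minority of assays that were lower. The Cdh5 mean at E8.5 came from 2 of the 6 cells, E8.5-1 and E8.5-2, which did not meet the myocyte rule. E9.5 cells detected more assays than E8.5 cells (mean 29.5 against 24) and had lower mean Actb (8.87 against 11.28 cycles). What part the kind of cell and the amount of RNA had in these means was not tested.

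The larger E10.5 table held many more such cells. Of its 66 distinct cells, 21 had at least 1 endothelial gene (31.8%, interval 20.9 to 44.4%), 12 of them 1 gene, 2 of them 2 and 7 all 3. Cdh5 was detected in 12 cells, Pecam1 in 12 and Vwf in 13. Against E9.5, the means were 1.64 cycles higher for Cdh5, 1.20 for Pecam1 and 1.08 for Vwf. Of all 42 assays, 9.52% were at least 1 cycle higher, that is 4 assays, and the 3 endothelial genes were among them. Of the 66 cells, 14 did not meet the myocyte rule, against none of the 6 at E9.5. A filter on cells with few detected assays left 7 of the cells with Cdh5, 6 with Pecam1, 9 with Vwf and 3 with all 3 genes, and it also left out every E7.5 cell and both E8.5 cells with Cdh5. Counting the 6 repeated E10.5 cells gives 21 of 72 cells (29.2%, interval 19.05 to 41.1%).

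**Figure D2:**
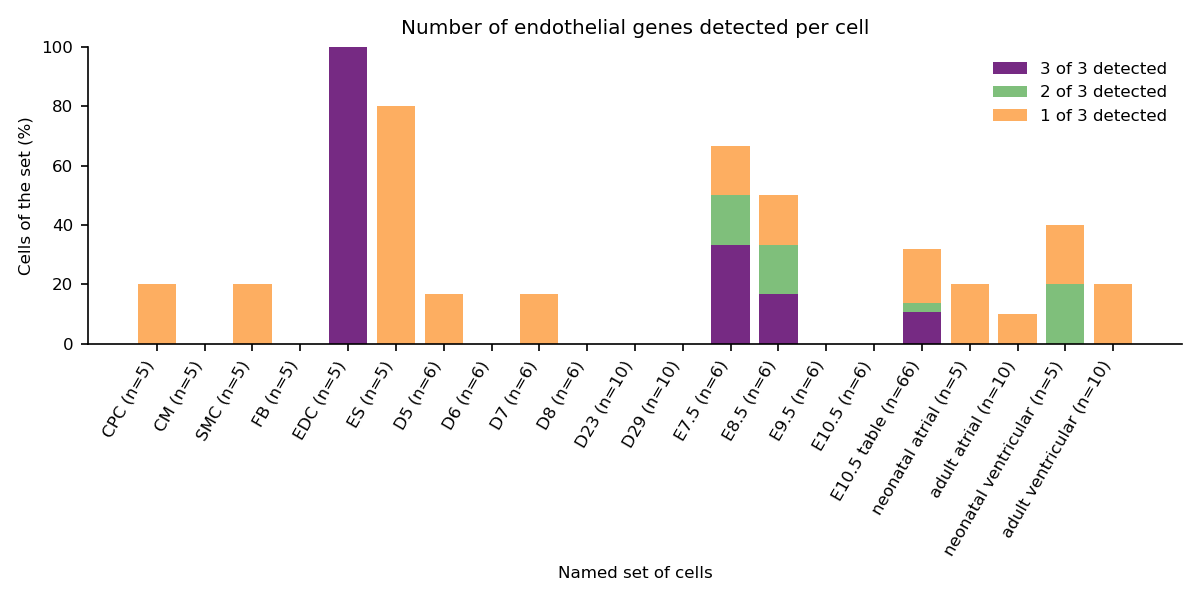
Share of the cells of each named set (percent, vertical axis) that detected 1, 2 or 3 of the endothelial genes (colours). All 3 genes together occur in the EDC, E7.5, E8.5 and large E10.5 sets and in no other set.

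The 7 cells with all 3 genes at E10.5 read 10.11 to 11.71 cycles for Cdh5. Its levels were 11.20 in E10.5-3, 10.30 in E10.5-4, 11.12 in E10.5-8, 11.71 in E10.5-26, 11.11 in E10.5-30, 10.11 in E10.5-41 and 10.77 in E10.5-61. Pecam1 ranged from 4.66 (E10.5-4) to 8.73 cycles (E10.5-8) in these cells. Vwf ranged from 4.43 (E10.5-61) to 10.01 cycles (E10.5-26). The SDs over the 7 cells were 0.55 for Cdh5, 1.47 for Pecam1 and 1.66 for Vwf, and they are not ranked because the assays differ in efficiency. Flk-1 was detected in 6 of the 7, at 7.58 to 10.08 cycles, and was missing in E10.5-8. Tnnt2-1 read 4.82 to 6.73 cycles in 3 of the 7 and was not detected in the other 4, and Actn2 was detected in 1, at 1.12 cycles.

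Set against the EDC cells, the 7 triple-positive E10.5 cells were 1.55 cycles higher in mean Cdh5 (10.90 against 9.35), 0.98 higher in Pecam1 (7.28 against 6.30) and 0.75 lower in Vwf (7.45 against 8.20). All 7 exceeded all 5 EDC cells for Cdh5, and the groups overlapped for Pecam1 and Vwf. Relative to Actb in the same cells, the Cdh5 difference turned to -0.36 cycles, Pecam1 to -0.94 and Vwf to -2.66. The higher Cdh5 therefore moved with a higher Actb and has no settled direction. Mean Actb also differed between reference types, at 11.53 cycles in CPC, 8.48 in EDC and 6.30 in CM cells. Whether it measures cell content across kinds of cell was not tested.

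The 2 cells with Cdh5 and Pecam1 but no Vwf at E10.5 differed from each other. E10.5-54 had Cdh5 at 10.13 and Pecam1 at 8.31 cycles, within the triple-positive range, with Flk-1 at 6.87 and no Tnnt2-1. E10.5-10 had Cdh5 at 5.22 and Pecam1 at 4.92 cycles, no Flk-1, Tnnt2-1 at 6.11 and the fibroblast and mesenchyme gene Pdgfra at 9.08. In the 12 cells with 1 gene, Cdh5 alone read 5.04, 5.17 and 6.26 cycles, Pecam1 alone 4.48, 5.10 and 5.13, and Vwf alone 0.37, 1.17, 2.36, 3.83, 5.41 and 6.0. The Cdh5 levels lay below all 7 triple-positive cells, while those of Pecam1 and Vwf reached above the lowest triple-positive cell. The heat map of these cells shows the change of company: 6 of the 7 rows with all 3 genes carry Flk-1 and Kit-1 (E10.5-8 has neither), and most rows with 1 gene carry the contractile assays.

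**Figure D3:**
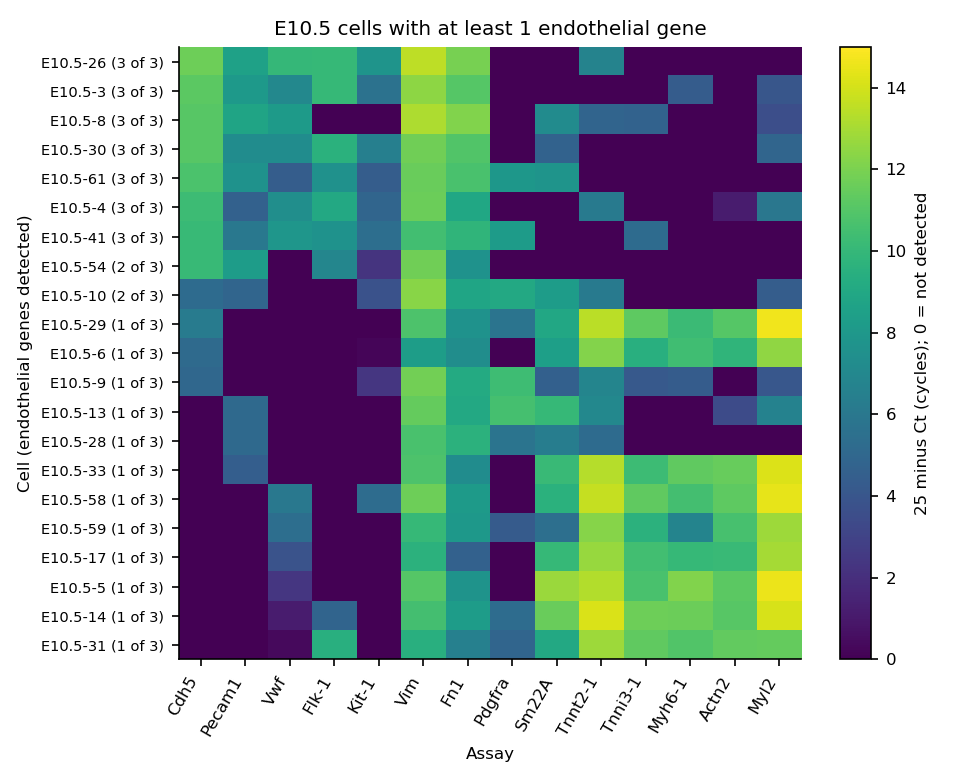
Level (colour, 25 minus Ct in cycles, dark for not detected) of 14 assays (columns) in the 21 distinct E10.5 cells with at least 1 endothelial gene (rows, ordered by the number detected). Cells with 3 genes read 10.11 to 11.71 cycles for Cdh5, and cells with Cdh5 alone 5.04 to 6.26.

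The genes did not combine freely. Over the 192 cells, all 3 together occurred in 15 cells and Cdh5 with Pecam1 in 5, while Cdh5 with Vwf and Pecam1 with Vwf each occurred in 0 cells. Cdh5 stood alone in 7 cells, Pecam1 in 10 and Vwf in 10. Every cell with 2 genes or more therefore had both Cdh5 and Pecam1, and Vwf, where it had company, was always the third. The 5 cells with Cdh5 and Pecam1 but no Vwf were E7.5-4, E8.5-1, E10.5-10, E10.5-54 and Neo-ventricular-1. Vwf alone was found in E7.5-2, in SMC-2 and in 8 cells of the E10.5 and neonatal heart sets that met the myocyte rule given below. Its levels there went down to 0.37 cycles, and 7 of the 10 cells remained at a Ct limit of 23. No order of the genes in endothelial cells can be read from these cells. These are cells fixed at 1 time each, and no order within a lineage was measured.

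Of the 27 cells with Cdh5, 20 had Pecam1 (74.1%), against 10 of 165 cells without Cdh5 (6.06%). Vwf was found in 15 of the 27 (55.6%) and in 10 of the 165 (6.06%). Without the reference cells the figures for Pecam1 were 15 of 22 (68.2%) and 5 of 140 (3.57%), and for Vwf 10 of 22 (45.5%) and 9 of 140 (6.43%). In the E10.5 table alone, 9 of 12 cells with Cdh5 had Pecam1 (75%) against 3 of 54 without (5.56%), and 7 of 12 had Vwf (58.3%) against 6 of 54 (11.1%). The pattern was thus similar in the set that has no conflict of labels.

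Level and company went together. Cdh5 read 3.61 to 6.26 cycles in the 7 cells where it was alone and 7.52 to 11.71 in the 15 where all 3 genes were detected, and these ranges did not overlap. Pecam1 read 3.34 to 7.09 cycles alone (n = 10) and 4.34 to 8.73 with both others (n = 15). Vwf read 0.37 to 6.0 cycles alone (n = 10) and 3.57 to 10.01 with both others (n = 15). For Pecam1 and Vwf the ranges overlapped, although the medians were 5.09 against 6.75 cycles and 3.60 against 7.39. What part the detection limit had in this was not tested.

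Cdh5 levels left a gap between 6.26 and 7.52 cycles, a division made after the values were seen. All 18 cells above it had Pecam1, 15 had Vwf, 16 had Flk-1 and 13 had Kit-1, while 4 had Tnnt2-1 and none met the myocyte rule. Of the 9 cells below it, 2 had Pecam1, none had Vwf, 3 had Flk-1, 8 had Tnnt2-1 and 7 met the myocyte rule. The cells above the gap came from the EDC, E7.5, E8.5 and E10.5 sets, and those below from the D5, E10.5 and heart sets.

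**Figure D4:**
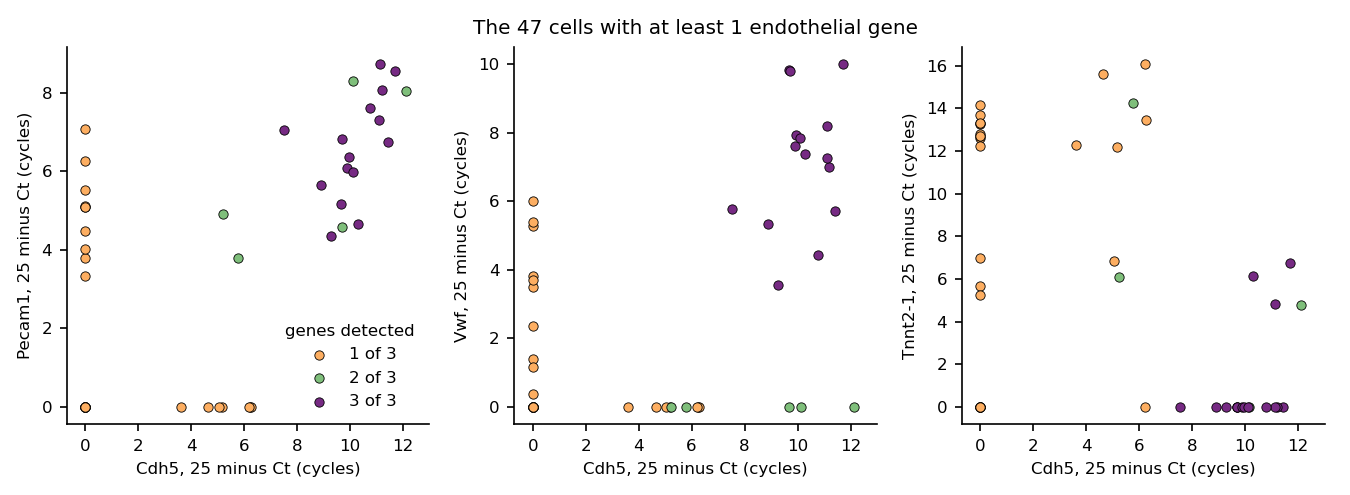
Cdh5 level (horizontal axes, 25 minus Ct, cycles) against Pecam1, Vwf and Tnnt2-1 levels (vertical axes, same unit) in the 47 cells with at least 1 endothelial gene, 1 point per cell, coloured by the number of the 3 genes detected. Cells with Cdh5 of at least 7.52 cycles have Pecam1 and low or no Tnnt2-1, and cells with Cdh5 of at most 6.26 have mostly neither Pecam1 nor Vwf.

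Flk-1, the VEGF receptor that marks endothelium and its mesodermal precursors, was found most often in cells with 2 or 3 endothelial genes. It was detected in 39 of the 145 cells with none, 7 of the 27 with 1, 4 of the 5 with 2 and 13 of the 15 with 3. Its median in detecting cells was 5.39, 5.32, 8.22 and 9.08 cycles in the same order. Among the E10.5 cells the counts were 10 of 45, 2 of 12, 1 of 2 and 6 of 7. Cells with 1 endothelial gene thus resembled cells with none for Flk-1, both in all cells and at E10.5.

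The genes most like each member across the 21 sets were found by Spearman correlation of set means, given as a description. For Cdh5 these were Vwf (0.72), Pecam1 (0.57) and Flk-1 (0.47). For Pecam1 they were Vwf (0.62), Cdh5 (0.57) and Kit-1 (0.56). For Vwf they were Cdh5 (0.72), Pecam1 (0.62) and Flk-1 (0.33). The 3 members thus led each other's lists. The sets share panel and method, and many means are 0. The large E10.5 set was taken without the cells it shares with the small one, and repeated cells in other sets were kept.

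The other 39 assays were compared between E10.5 cells with 2 or 3 endothelial genes (n = 9) and those with none (n = 45). A mean higher by 1 cycle or more was found for 6 assays (15.4%) and a mean lower by as much for 20 (51.3%). Flk-1 read 6.77 ± 4.0 cycles (SD) in the 9 cells and 1.11 ± 2.29 in the 45, and was detected in 7 and 10 cells. Kit-1 read 4.52 ± 2.31 against 0.70 ± 1.56 cycles and was detected in 8 and 8. Kit-2, the second Kit assay, did not reach the step of 1 cycle. It read 1.77 ± 1.78 against 1.35 ± 1.81 cycles and was detected in 5 and 18. The matrix gene Fn1 (fibronectin) read 10.22 ± 1.52 against 5.46 ± 2.79 cycles, and the intermediate filament gene Vim (vimentin) 12.07 ± 0.93 against 9.41 ± 1.16. Actb was 2.58 cycles higher and Pdgfra 1.88 higher, the latter through 3 of the 9 cells.

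The lower assays were led by muscle genes, and all 10 cardiomyocyte assays were among them. The largest differences were -9.52 cycles for Actn2 (sarcomeric alpha-actinin) and for Tnnt2-2, -9.27 for Tnnt2-1, -9.08 for Tnni3-2 (cardiac troponin I) and -8.57 for Nkx2.5-1 (a cardiac transcription factor). Myh6-1, Myl2 and Myh6-2, which detect cardiac myosin chains, followed at -8.48, -8.36 and -7.90. Actn2 was detected in 1 of the 9 cells and 43 of the 45, and Nkx2.5-1 in 0 and 41. Of the 3 smooth muscle assays 2 were lower, and of the 12 cardiac progenitor assays 6, with none higher. In the plot of all 39 assays, the order runs from Flk-1 at the top to Actn2 at the bottom.

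**Figure D5:**
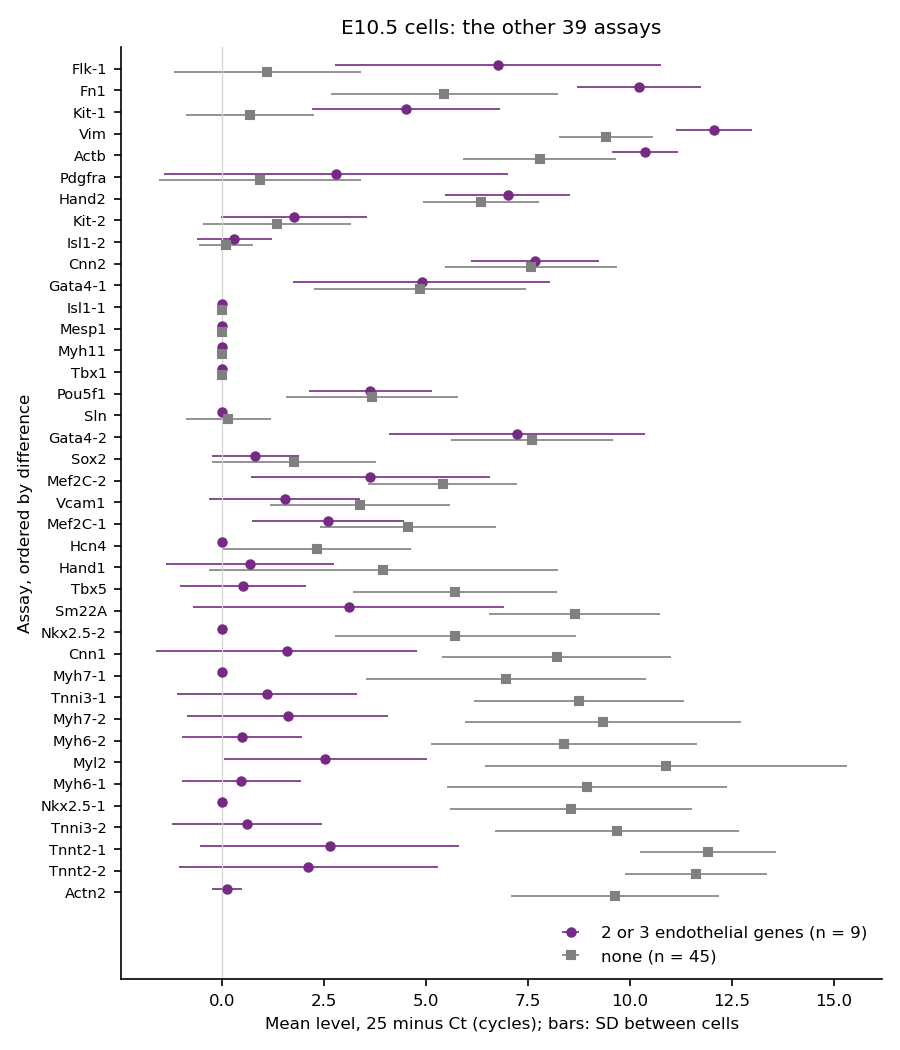
Mean level (horizontal axis, 25 minus Ct, cycles, bars SD between cells) of the 39 assays outside the endothelial genes (vertical axis, ordered by difference) in E10.5 cells with 2 or 3 endothelial genes (circles, n = 9) and with none (squares, n = 45). Flk-1, Fn1, Kit-1, Vim, Actb and Pdgfra are at least 1 cycle higher in the former, and the 8 assays with the largest negative differences lie at -7.90 to -9.52 cycles.

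Of the 45 cells without an endothelial gene, 41 were myocytes by the rule given below. Against the 4 non-myocytes with none, a comparison added after the data were seen, 6 assays were higher and 12 lower. Flk-1 (6.77 cycles against not detected in the 4) and Kit-1 (4.52 against not detected) were still higher. Fn1 (10.22 against 10.503), Vim (12.07 against 12.06) and Actb (10.38 against 11.32) were no longer higher, and Pdgfra (2.81 against 6.03) was lower. Of the 10 cardiomyocyte assays 5 were lower, Tnnt2-1 by -4.81 cycles, and 1 was higher, Myl2 (2.54 against not detected). Of the smooth muscle assays, Sm22A differed by -5.41 cycles and Cnn1 by 1.59. Of the assays that were higher against all cells with none, Flk-1 and Kit-1 thus remained higher against the other non-myocytes. Kit-2 went the other way (1.77 against 3.24, a difference of -1.46 cycles), so the 2 Kit assays disagreed.

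The same contrast in the reference table set the 5 EDC cells against 19 cells with none. There 10.3% of the 39 assays stood higher by that step and 56.4% lower. Flk-1 read 4.46 ± 2.63 against 0.52 ± 1.59 cycles. Kit-1, at 1.45 ± 2.0 against 1.06 ± 1.87, differed by less than the spread between cells. In the E7.5-E10.5 table, 5 cells stood against 17 that were mostly of later stages, and 12.8% of assays were higher and 66.7% lower, with Flk-1 at 10.19 ± 0.63 against 2.81 ± 3.44 and Kit-1 at 5.19 ± 3.10 against 2.06 ± 2.35. Flk-1 was therefore higher in the cells with endothelial genes in all 3 tables, and Kit-1 by at least 1 cycle in the E10.5 and E7.5-E10.5 tables. Against the 2 non-myocytes with none in the E7.5-E10.5 table, Kit-1 was not higher (5.19 against 5.60). Kit-2 was lower in the 5 cells of that table than in the 17, at 0.73 ± 1.64 against 2.02 ± 2.01.

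Myocytes were defined as cells that detected at least 1 assay of each of the contractile genes Tnnt2, Tnni3 and Myh6, which gave 133 of the 192 cells. An endothelial gene was detected in 18 of them (13.5%, interval 8.22 to 20.5%), against 29 of the 59 other cells (49.2%, interval 35.9 to 62.5%). In the 18 myocytes Cdh5 was found 7 times, Pecam1 4 times and Vwf 8 times. Only Neo-ventricular-1 had 2 genes and none had 3, whereas 19 of the other cells had 2 or more. The highest level of any endothelial gene in a myocyte was 6.26 cycles, and in the other cells 12.12. Cdh5 and Pecam1 in myocytes stayed below the lowest EDC cell, and Vwf in E10.5-58, at 6.0 cycles, exceeded EDC-1. These contrasts depend on the rule. With Tnnt2 alone as the rule, 6 of 154 myocytes had 2 or 3 genes, 3 of them all 3, and the highest level was 12.12 cycles. With at least 5 of the 10 cardiomyocyte assays, 2 of 136 had 2 or 3 genes, 1 of them all 3, and the highest level was 11.12.

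The myocytes with an endothelial gene came from the E8.5, E10.5 and heart sets. In the E10.5 table they were 11 of 52 (21.2%, interval 11.1 to 34.7%), 3 with Cdh5, 2 with Pecam1 and 6 with Vwf, and each had 1 gene. Of the 14 other E10.5 cells, 10 had an endothelial gene, 9 had at least 2 and 7 had 3. In hearts they were 6 of 30 (20%, interval 7.71 to 38.6%), and in the sets from D5 to D29 0 of 32, which allows up to 10.9% at the upper 95% bound. The difference between these sets was not tested. Actb averaged 7.76 ± 1.68 cycles in the 52 E10.5 myocytes, 5.14 ± 1.99 in the 30 of the hearts and 6.35 ± 1.30 in the 32 from D5 to D29, and its part in the shares was not tested.

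Within the E10.5 myocytes, the 11 with an endothelial gene had higher means for Actb, Vim and the number of detected assays than the 41 without. Actb read 8.91 ± 1.64 cycles in them and 7.45 ± 1.56 in the 41 without, Vim 10.51 ± 1.05 against 9.16 ± 0.83, and the number of detected assays, their own endothelial gene included, was 29.4 ± 3.23 against 27.3 ± 2.15. The difference in Vim exceeded these SDs, while those in Actb and in the number of assays were smaller than the SD of the 11. Tnnt2-1 (11.97 ± 2.57 against 12.35 ± 0.92), Actn2 (9.23 ± 3.83 against 10.31 ± 1.14) and Myl2 (12.04 ± 3.504 against 11.96 ± 2.94) were not higher by more than the spread between cells either. E10.5-9 and E10.5-13 stood apart among the 11, with Tnnt2-1 at 6.84 and 6.98 cycles against 12.20 to 14.18 in the other 9, and with Pdgfra at 10.35 and 10.58. Among the 50 myocytes with Tnnt2-1 of at least 9 cycles, a limit set after the data were seen, 9 had an endothelial gene. Tnnt2-1 read 13.10 ± 0.66 cycles in these 9 and 12.35 ± 0.92 in the 41 without, a difference above the SD of the 9 but not of the 41. Vim read 10.26 ± 0.99 against 9.16 ± 0.83 and Actb 8.43 ± 1.37 against 7.45 ± 1.56. The number of detected assays was 30.8 ± 0.83 against 27.3 ± 2.15. In hearts, Actb was 6.38 ± 2.08 in the 6 with a gene and 4.83 ± 1.88 in the 24 without, with 25 ± 4.10 and 21.8 ± 3.14 detected assays. What part the amount of RNA had in these detections was not tested.

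Other non-muscle assays were detected in some or all E10.5 myocytes too. Flk-1 was found in 12 of the 52, Kit-1 in 11 and Pdgfra in 9, against 3 for Cdh5, 2 for Pecam1 and 6 for Vwf. Kit-2 was found in 19, Fn1 in 47 and Vim in all 52. Of all 42 assays, 1 was detected in none of these myocytes and 6 in all. In heart myocytes 3 assays were detected in none and 10 in all. From D5 to D29 the figures were 7, the 3 endothelial genes included, and 9. Of the 11 myocytes with an endothelial gene 2 had Flk-1, and of the 41 without 10 had it. In heart myocytes, 3 of the 6 with an endothelial gene had Flk-1 and 7 of the 24 without. The shares ran in opposite directions in these sets, and neither difference was tested.

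In the hearts the detected levels lay between 3.51 and 6.20 cycles. In neonatal cells 3 of 10 had a gene, Vwf at 3.51 cycles in Neo-atrial-1, Cdh5 at 5.77 with Pecam1 at 3.79 in Neo-ventricular-1, and Vwf at 3.70 in Neo-ventricular-2. In adult cells 3 of 20 had one, each Cdh5 alone: Adult-atrial-9 at 3.61 cycles, adult-ventricular-2 at 4.64 and adult-ventricular-4 at 6.20. Neither Pecam1 nor Vwf was detected in the 20 adult cells. Neo-ventricular-1, adult-ventricular-2 and adult-ventricular-4 also had Flk-1, at 6.40, 5.32 and 4.68 cycles. All 30 heart cells met the myocyte rule, and no mean of the 3 genes differed by 1 cycle between neonatal and adult cells of either chamber. Of all 42 assays, 42.9% differed by at least 1 cycle in the atrial cells and 47.6% in the ventricular cells.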

How the data were processed

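Sorted single cells were lysed in strips, reverse transcribed in 1 step, pre-amplified and run as TaqMan assays on Fluidigm BioMark chips, per the labels' protocols. The authors deposited Ct values in 7 tables, but how Ct was set and whether cells were removed is not given in the sources used here. Expression was computed as 25 minus Ct without correction to Actb, since a Ct of 25 marks an assay without signal in the tables. The values have no read depth: the number of cells and the detection limit set the precision. Repeated cells were found by identical values in all 42 assays. They were counted once in the totals over distinct cells and left out of the large E10.5 set, but were kept in the other named sets. The 12 control columns were not used as cells. No doublet caller was run. The 3 genes were taken by name and the gene lists, the myocyte rule and the 1-cycle step were chosen with earlier results of these data known. Named assays were the members, Flk-1, Actb, the cardiomyocyte assays, the 3 assays most like each member and the 8 largest differences of at least 1 cycle in each direction between cells with 2 or 3 endothelial genes and cells with none. Kit-1, Vim, Fn1, Pdgfra and Sm22A values beside single cells were chosen after they were seen. Alternatives were a Ct limit of 23, Actb or median centring, detecting cells or medians, a quality filter (dropping cells without Actb, or with a count of detected assays below the median of their table by over 3 median absolute deviations), leaving out single EDC cells, counting repeats, other myocyte rules, all 3 genes and detection shares. Added after seeing the data were non-myocytes as the comparison, a filter scaled to a normal SD and a Tnnt2-1 minimum of 9 cycles. The step that computes differences was run on simulated levels and recovered the direction for 36 of 36 assays of the E10.5 table. The simulation had many more cells per side than the data, no undetected values, and shifts, where set, far above the 1-cycle step. It thus checks the computation only and cannot show how reliable calls from few cells with many undetected values are. Python 3.11.15, pandas 2.3.3 and scipy 1.17.1 were used.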

Additional observations from a re-analysis of the deposited data

Results flagged for a closer look

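Of 20 combinations of a gene and a set of 4 to 10 cells with more than 1 level, 11 had a cell whose gap to the nearest other cell exceeded Dixon's 95% critical value, and chance alone marks about 1 in 20 groups of continuous values. In 10 of the 11 the gene was detected in 1 cell of the set, so the gap is the whole range by construction and the chance rate does not apply. These were Pecam1 in CPC-5 (5.53 cycles), Vwf in SMC-2 (1.41), Cdh5 in D5-6 (6.23), Pecam1 in D7-1 (3.34), Vwf in E8.5-2 (5.71), Vwf in Neo-atrial-1 (3.51), Cdh5 in Adult-atrial-9 (3.61), Cdh5 and Pecam1 in Neo-ventricular-1 (5.77 and 3.79) and Vwf in Neo-ventricular-2 (3.70). The remaining one is Cdh5 in EDC-1, which at 7.52 cycles lay below the other 4 EDC cells. EDC-1 was also the EDC cell without Flk-1.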

How the results depend on the processing

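Of 122 alternative values, 106 stayed within 1.5 times the count or level given or within the spread between cells, and the others moved further. Relative to Actb, the differences between triple-positive E10.5 and EDC cells turned their sign for Cdh5 (-0.36 cycles) and Pecam1 (-0.94). The filter on cells left out 18 cells, 12 of them with an endothelial gene and 10 with 2 or 3, among them all 6 E7.5 cells, so it gives no E7.5 value. It left 3 of 7 triple-positive E10.5 cells and 1 E8.5 cell with an endothelial gene in place of 3, and among all distinct cells 17 with Cdh5 and 19 with Pecam1. Cells with 2 or 3 endothelial genes detected few of the panel's assays (18.7 ± 2.65 at E10.5). This was not particular to them, as the E10.5 non-myocytes with 0 or 1 gene detected 16.8 ± 2.39. At E10.5 the filter left out 5 of the 9 cells with 2 or 3 genes. Scaled to a normal SD it left out 6 cells, kept all 7 triple-positive cells and left 3 E7.5 and 3 E8.5 cells with a gene. Centring on the median detected assay gave 10 higher assays at E10.5 in place of 6. Against non-myocytes with none, 12 assays were lower in place of 20 at E10.5, and 12 in place of 22 for the reference cells. A Ct limit of 23 left 16 of 18 myocytes with a gene. The myocytes with 2 or 3 genes became 6 by Tnnt2 alone and 2 by 5 of 10 cardiomyocyte assays, in place of 1. No paired analysis was possible because the result comes from no test. The number of cells and the detection limit, not a read depth, limit what these counts show.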
